A study of Mus musculus with 30 samples.

Results

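The fatty acid oxidation genes of the mouse kidney are described here as a set of 36 genes, chosen by name to cover fatty acid uptake, activation, the carnitine shuttle, mitochondrial and peroxisomal oxidation, acetoacetyl-CoA and ketone body steps, and the regulator Ppara. A gene was found on the arrays through the symbol that the array annotation gives a probe set, the group of short probes designed for 1 transcript. Of the 36 genes, 26 had a probe set and 25 were tested, by 28 of the 31 probe sets found, out of 4512 tested probe sets among 13179 in the series. By gene, the 25 stand among 2669 named genes tested. The 36 genes were chosen with earlier results of these data known. The 10 genes found on neither array were Acaa1a, Ehhadh, Pex11a, Hadhb, Eci2, Etfa, Etfdh, Acsl1, Oxct1 and Bdh1. Fabp1 was on the array but was above background on 2 of 15 arrays only and was not tested.

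Kidney total RNA came from C57BL/6 mice, an inbred laboratory strain, in 3 groups of 5: control-fed mice aged 5 months (young controls), control-fed mice aged 30 months (old controls) and mice of 30 months fed a calorie-restricted diet. A calorie-restricted mouse is given less food than it would eat. RNA of every mouse was read on 2 array types, marked A and B in the sample titles, giving 30 samples. No young calorie-restricted mice are analysed here, and the labels give neither the sex of the mice nor the degree and duration of restriction. Whether the titles' numbers 1 to 5 in each group are 5 different mice is not stated. Each number is taken as 1 mouse, and a p-value then measures only the spread between these samples, which may in part be technical.

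Fatty acids enter cells with the help of the membrane protein CD36 and are carried by fatty acid binding proteins. They are activated to acyl-CoA, passed into mitochondria as carnitine esters, and shortened there by rounds of dehydrogenation, hydration, a further dehydrogenation and thiolysis, while peroxisomes begin the shortening of very long and branched chains. The proximal tubule of the kidney draws much of its energy from this pathway, and the nuclear receptor PPAR alpha, encoded by Ppara, turns on many of its genes in fasting.

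PPAR alpha with its partner RXR binds a pair of half-sites, AGGTCA, in direct repeat with 1 base between them. As PPAR alpha turns on many genes of the pathway, the 250 bases before each gene's RefSeq start (assembly GRCm38.p6) were searched on both strands. The table held 31 promoters for 29 of the 36 genes. The half-site AGGTCA stood in 7 of the 31 (22.6%) and in 4607 of all 32851 promoters of the same length (14%). A looser direct repeat, AGGNCANAGGNCA, which can overlap a half-site, stood in 1 of the 31 (3.23%) and in 111 of the 32851 (0.338%). Of the genes that passed a test below, Fabp3 holds neither motif, and Amacr, Acat1 and Acaa2 had no promoter to search. Shown are Acadm and Cd36, which passed and hold a half-site, Cd36 only between calorie-restricted and young mice on array A. Also shown are Acot1 and Fabp1. Acot1 had the largest log2 change with the diet among the members and holds neither motif here, and Fabp1 is the 1 promoter with the direct repeat. Each reads 5′ to 3′ on the gene's own strand and ends at the base before the start, and capitals mark the motif on either strand.
Acadm, chr3:153944644-153944893, minus strand: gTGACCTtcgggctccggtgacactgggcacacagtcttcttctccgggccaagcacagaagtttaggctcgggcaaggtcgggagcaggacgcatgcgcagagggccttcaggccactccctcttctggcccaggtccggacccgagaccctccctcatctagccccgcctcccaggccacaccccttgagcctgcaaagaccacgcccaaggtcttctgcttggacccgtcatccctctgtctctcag
Cd36, chr5:17835897-17836146, minus strand: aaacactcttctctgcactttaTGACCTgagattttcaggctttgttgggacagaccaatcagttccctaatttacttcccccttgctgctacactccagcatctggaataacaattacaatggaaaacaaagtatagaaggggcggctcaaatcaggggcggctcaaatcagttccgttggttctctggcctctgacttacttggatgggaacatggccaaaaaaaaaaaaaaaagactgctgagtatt
Acot1, chr12:84009252-84009501, plus strand: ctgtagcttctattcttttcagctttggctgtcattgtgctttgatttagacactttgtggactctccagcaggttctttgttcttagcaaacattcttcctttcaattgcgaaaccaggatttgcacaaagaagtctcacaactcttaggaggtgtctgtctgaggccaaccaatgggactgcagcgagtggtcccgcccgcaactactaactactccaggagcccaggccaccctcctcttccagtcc
Fabp1, chr6:71199629-71199878, plus strand: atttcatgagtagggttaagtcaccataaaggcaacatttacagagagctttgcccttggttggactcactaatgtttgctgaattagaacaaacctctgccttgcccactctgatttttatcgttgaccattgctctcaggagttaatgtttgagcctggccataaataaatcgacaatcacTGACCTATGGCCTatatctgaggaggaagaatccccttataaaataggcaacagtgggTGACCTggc
The half-site began 249 bases before the start in Acadm and 228 bases before it in Cd36. The direct repeat of Fabp1, TGACCTATGGCCT on this strand, began 67 bases before the start. Half-sites also stood before Scp2 (109 bases), Cpt1a (94), Acadvl (87) and Echs1 (83). These are matches of letters in a short window, with no binding measured.

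Deposited intensities are whole numbers on each array's linear scale, and a value under the floor of 1103 on array A or 1822 on array B could not be told from background. Between 33.5% and 37.5% of the values of an A array and between 23.8% and 27.6% of those of a B array lay above it, which limits what dim genes can show, and precision is bounded by having 5 arrays a group. In table B, of 26 pairs of probe sets with the suffixes i, f, s or r for 1 target, 25 had opposite order in young and old controls, against 0 of 27 between old and calorie-restricted mice and 0 of 23 between young and old on table A. None of the members belongs to these 85 tested probe sets, and the other rows of table B have no such partner to be checked by. With the 3 groups pooled, numbers 1 to 3 and 4 to 5 of the titles also stand apart without overlap for 235 of 4512 tested probe sets (5.21%). The labels do not say what separates them. The change in each number set is given beside the members that passed the threshold and beside others where it bears on the value. Between the sets the log2 change had opposite signs for 10 of 28 member probe sets with age, 7 with the diet and 7 between calorie-restricted and young mice. The same counts over all tested probe sets are not given, so these are not read as particular to the members. Of the kidney's own markers, Slc34a1 of the proximal tubule and Umod of the loop of Henle were above the floor on 15 of 15 arrays.

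With age, 4 of the 28 member probe sets fell and 0 rose, by limma with Benjamini-Hochberg adjustment over all 4512 probe sets, at an adjusted p of 0.05. They stand for 3 genes: Amacr of the peroxisome and mitochondrion, Acat1 of acetoacetyl-CoA metabolism, and Acadm, the medium-chain acyl-CoA dehydrogenase, on both arrays. This share is 14.3%, against 5.05% of all tested probe sets called in either direction (228) and 2.11% called lower (95). Without the 85 of table B, 3.39% (150 of 4427) were called in either direction. The members were chosen with earlier results of these data known, so this share and those below are no independent evidence. At an unadjusted p under 0.05 there were 9 of 28 members and 732 of 4512 probe sets. The log2 changes of the members were above 0 for 8 and below 0 for 19, with a median of -0.13 against -0.04 over all tested probe sets.

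With the diet, 0 of 28 member probe sets passed in limma after adjustment, against 2.62% of all probe sets (118 of 4512), and 5 of 28 had an unadjusted p under 0.05, against 658 of 4512. One of the 5, Acot1, could be tested through its level in the calorie-restricted mice alone, as described below. The log2 changes were above 0 for 21 and below 0 for 7, with a median of 0.18 against 0.03 over all tested probe sets. Counts under other settings ranged from 0 to 2 of the members.

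Old calorie-restricted mice differed from young controls in 4 of 28 member probe sets (14.3%), against 5.72% of all (258) and 3.82% (169 of 4427) without the 85 of table B. The thiolase Acaa2 was higher, where 2.95% of all probe sets were higher (133). Amacr, Cd36 and Fabp3 were lower, where 2.77% of all were (125). The median was 0.02, against -0.01 over all tested probe sets, with 14 members on each side of 0, and 13, Acot1 among them, had an unadjusted p under 0.05 against 811 of all. This comparison shares its young controls with that of age and its calorie-restricted mice with that of the diet, so it adds no independent evidence to either.

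**Figure D1:**
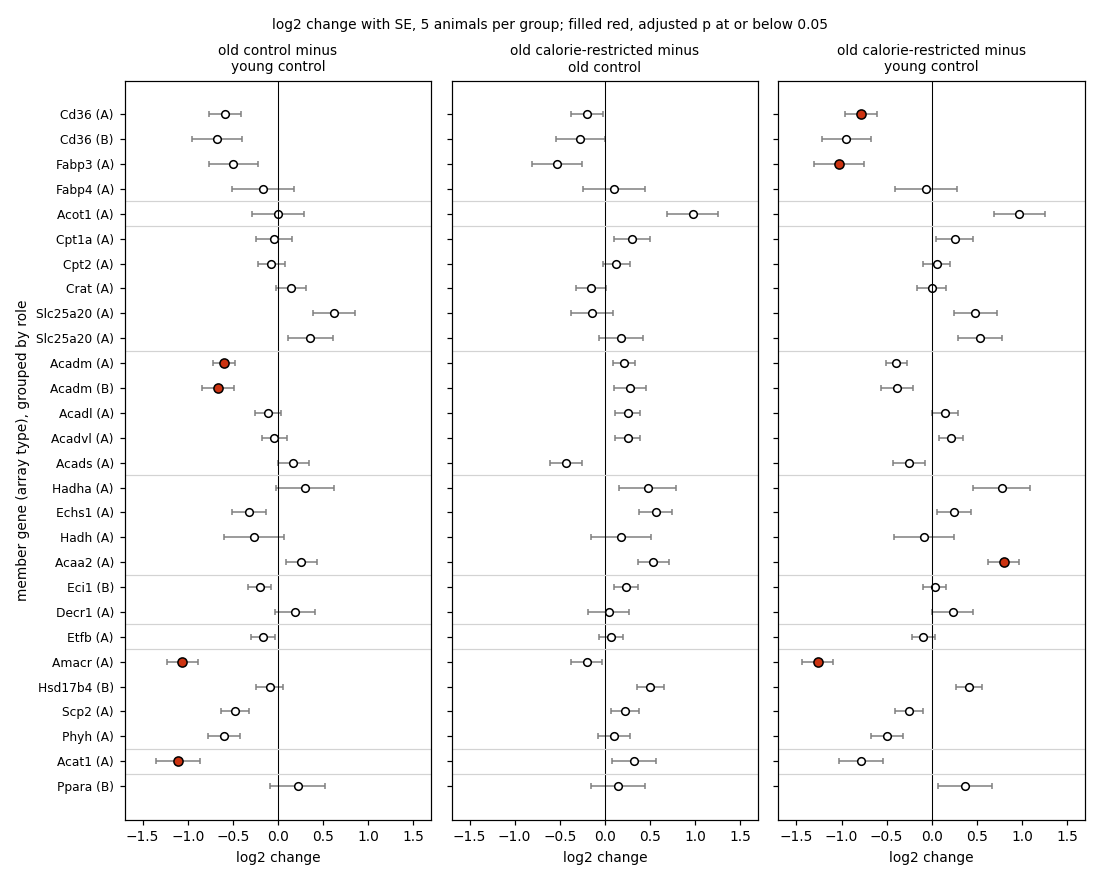
log2 change (horizontal axis) with its SE for each of the 28 tested member probe sets (vertical axis, array letter in brackets, grouped by role), in 3 comparisons of groups of 5 animals. Filled red points have an adjusted p at or below 0.05: 4 lower with age, 0 with the diet, and 1 higher and 3 lower between calorie-restricted and young mice.

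Of the uptake and binding genes, Cd36, Fabp3 and Fabp4 were tested and 0 of 3 changed with age or with the diet. CD36 is a membrane protein that takes up long-chain fatty acids. On array A, Cd36 read 6744, 8285, 8136, 4805 and 7509 in young controls, 5317, 3623, 3941, 5689 and 4827 in old controls, and 4854, 4184, 3360, 3483 and 4520 in calorie-restricted mice. Young animal 4 lay among the old mice, and the groups overlapped. The log2 change of Cd36 on array A was -0.59 ± 0.18 (SE) with age (adjusted p = 0.0715) and -0.20 ± 0.18 with the diet (adjusted p = 0.656). Between calorie-restricted and young mice it was lower by -0.79 ± 0.18 (adjusted p = 0.0121), to 0.58 of the young level, by set -0.91 (numbers 1 to 3) and -0.60 (4 and 5). This call was lost in 2 of 29 alternatives, numbers 4 and 5 alone (adjusted p = 0.431) and no filter on low values (adjusted p = 0.0603).

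Array B carries a second probe set of Cd36. Cd36 on array B read 9993, 17815, 10632, 10073 and 15318 in young controls, 12749, 9362, 6394, 8946 and 4099 in old controls, and 8180, 6712, 4724, 5024 and 8417 in calorie-restricted mice. All 5 calorie-restricted mice lay below all 5 young mice, while old controls overlapped both. The change between calorie-restricted and young mice was -0.95 ± 0.28 (adjusted p = 0.0549), and with age it was -0.68 ± 0.28 (adjusted p = 0.219). The former passed in 7 of 29 alternatives, with adjusted p = 0.0372 with the number set as a term. The adjusted p was 0.0497 with the title number as a replicate block, though the labels do not say that numbers pair the mice. Without old control 1 the adjusted p was 0.0387, and without old control 5 it was 0.0221. With the diet the change was -0.27 ± 0.28, by set -0.52 (numbers 1 to 3) and 0.10 (4 and 5). Across the 15 animals the log2 values of Cd36 on its arrays had a Pearson r of 0.749, and of 0.464 after the group means were taken out. The points of each pair share the animal's RNA, and the r is a description.

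FABP3 is the fatty acid binding protein best known from heart and muscle. Fabp3 read 7189, 8918, 6724, 14445 and 11215 in young controls, 7074, 6432, 5555, 7568 and 6536 in old controls, and 5410, 5636, 2286, 7647 and 3729 in calorie-restricted mice. Young animals 4 and 5 stood above every other mouse, and calorie-restricted animals 3 and 5 below. The log2 change was -0.49 ± 0.28 with age (adjusted p = 0.412), -0.53 ± 0.28 with the diet (adjusted p = 0.405) and -1.03 ± 0.28 between calorie-restricted and young mice (adjusted p = 0.0387). The last passed neither in numbers 1 to 3 alone (-0.88, adjusted p = 0.15) nor in numbers 4 and 5 alone (-1.25, adjusted p = 0.262). It was also lost without young animal 2 (adjusted p = 0.0755), 4 (0.09) or 5 (0.0863), or without calorie-restricted animal 1 (0.0517), 3 (0.079) or 5 (0.0874), in all in 10 of 29 alternatives.

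FABP4 is the binding protein of fat cells and of some endothelium. Its log2 change was -0.16 with age, by set -0.56 (numbers 1 to 3) and 0.43 (4 and 5), and 0.10 with the diet. Calorie-restricted animal 3, at 2347, was the lowest of the 15, as it was for Fabp3. Among fat markers, Lpl, the lipoprotein lipase, fell by 0.92 ± 0.17 on the log2 scale with age (adjusted p = 0.00234), and its log2 difference between calorie-restricted and young mice, where Cd36 on array A and Fabp3 passed, was -1.21 ± 0.17 (adjusted p = 0.000194). It was the 1 of 6 tested fat genes that was lower in either comparison. The summed level of the 6 was 23638 to 29174 in young controls, 15433 to 28946 in old controls and 12985 to 23996 in calorie-restricted mice. Lpl was the brightest of the 6, with means of 15780, 8340 and 6961 in the same order of groups, and weighs most in this sum. The median log2 change of the 6 with age was 0.20, so the sum does not stand for the list. Adipoq, the adipokine that marks fat cells, read 2089 ± 464 (SD, n = 5) among young and 3110 ± 1252 among old controls and was above the floor on 15 of 15 arrays. The markers Emcn, Cdh5, Tek and Pecam1 of endothelium were not tested for lack of signal, and 0 of 3 tested endothelial genes changed, with a summed level of 9206 to 12162, 11859 to 16969 and 9285 to 16513 in the same order of groups. Of the muscle markers 0 of 4 changed, with a summed level of 16620 to 24487, 13294 to 22215 and 18400 to 26031 in the same order of groups. The part of fat, vessel or muscle tissue in the values of Cd36, Fabp3 and Fabp4 was not tested.

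ACOT1 is a cytosolic thioesterase that splits acyl-CoA back to fatty acid, and it was the 1 tested member of its class. Acot1 read 94, -101, -332, -316 and 321 in young controls, 319, 981, 90, 657 and 578 in old controls, and 1619, 1177, 1498, 4244 and 3927 in calorie-restricted mice. All 10 control-fed mice lay under the floor of 1103 and all 5 calorie-restricted mice above it, with animals 4 and 5 the highest. The probe set passed the filter on low values through the calorie-restricted group alone, so a higher level there was a condition of being tested. Its difference is therefore given as a description, with no p. Set against the floor, calorie-restricted mice were at least 1.96-fold higher than old and than young controls (log2 0.97), by set 0.36 (numbers 1 to 3) and 1.89 (4 and 5). Acot1 has close copies in its gene family, and the probes may not tell them apart.

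**Figure D2:**
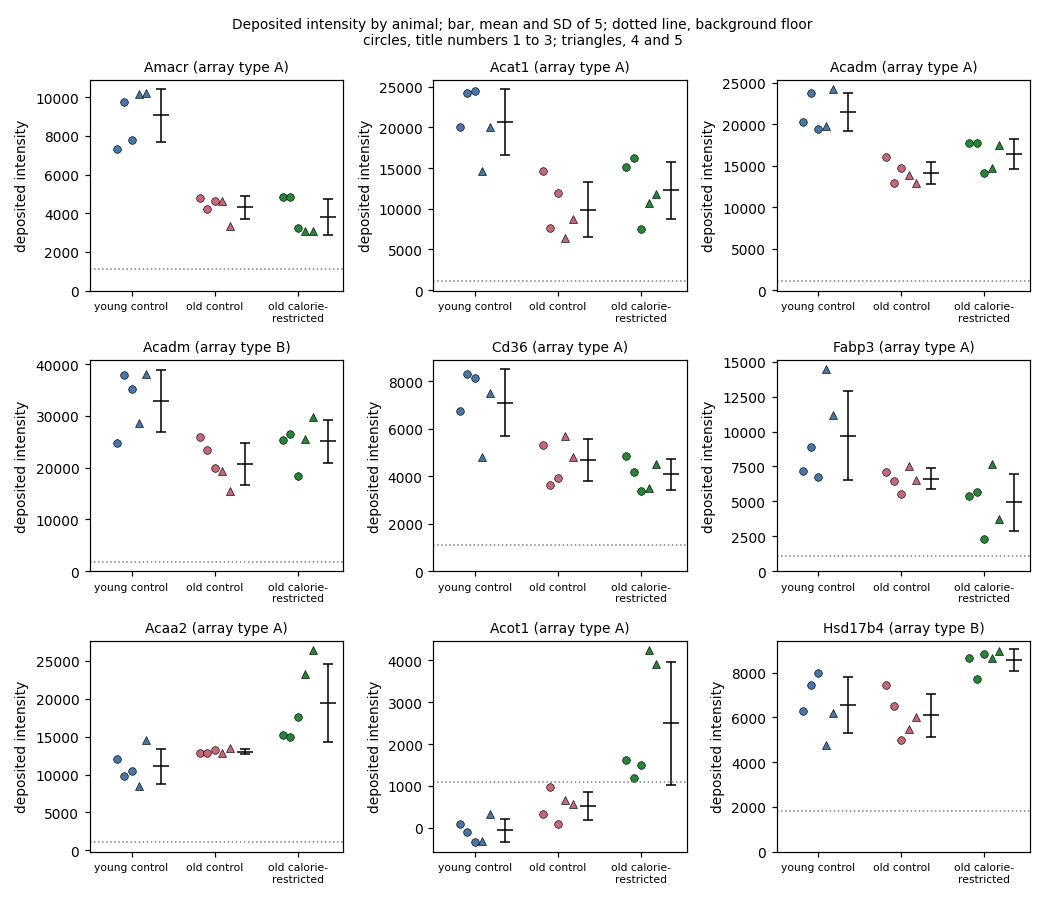
Deposited intensity (vertical axis, linear) of each of 15 animals by group for Amacr, Acat1, Acadm on both arrays, Cd36, Fabp3, Acaa2, Acot1 and Hsd17b4. Black bars give the mean and SD of 5, dotted lines the background floor, circles the title numbers 1 to 3 and triangles 4 and 5; all young mice lie above all old controls for Amacr, and Acot1 exceeds the floor in the calorie-restricted mice alone.

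The 4 carnitine genes were all tested, and 0 of 5 probe sets changed in any comparison. CPT1A forms the carnitine ester at the outer mitochondrial membrane, the step that sets the rate of entry. Cpt1a read 15827, 13230, 15636, 7968 and 10131 in young controls, 12866, 12364, 13356, 7431 and 14119 in old controls, and 13933, 13873, 15487, 14607 and 14567 in calorie-restricted mice. The calorie-restricted mice kept within a narrow range, while animal 4 was the lowest in both control-fed groups. The log2 change was -0.05 ± 0.20 with age (adjusted p = 0.943) and 0.30 ± 0.20 with the diet (adjusted p = 0.532).

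SLC25A20 carries acylcarnitine across the inner membrane. Its first probe set, Slc25a20 at, read 3487, 2399, 2780, 1611 and 2134 in young controls, 3509, 5219, 4163, 2671 and 3354 in old controls, and 3104, 2122, 4083, 4056 and 3916 in calorie-restricted mice. Young and old controls overlapped, with young animals 1 and 3 above old control 4. Slc25a20 differed by 0.62 ± 0.23 with age (adjusted p = 0.176) and by -0.14 ± 0.23 with the diet (adjusted p = 0.834), the latter -0.50 in numbers 1 to 3 and 0.41 in numbers 4 and 5. Its g probe set, for the same transcript, differed by 0.36 and 0.18. CPT2, which reverses the ester inside, and CRAT, which acts on acetyl and short acyl groups, had changes of -0.07 and 0.15 with age and of 0.13 and -0.15 with the diet for Cpt2 and Crat. The standard errors were 0.15 and 0.17, so these changes were within the error.

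Of the 4 mitochondrial acyl-CoA dehydrogenases, which take the first hydrogens from a chain of their own length class, only Acadm passed the threshold in any of the 3 comparisons. ACADM is the medium-chain enzyme, and its loss in people causes intolerance of fasting. On array A, Acadm read 20306, 23730, 19407, 19792 and 24220 in young controls, 16077, 12899, 14714, 13912 and 12968 in old controls, and 17779, 17738, 14181, 14702 and 17533 in calorie-restricted mice. All 10 old mice lay below all 5 young mice, and calorie-restricted animals 1, 2 and 5 lay above every old control. Acadm on array A fell with age by 0.60 ± 0.12 on the log2 scale (adjusted p = 0.00499), to 0.659 of the young level, by set -0.54 (numbers 1 to 3) and -0.70 (4 and 5). With the diet it differed by 0.21 ± 0.12 (adjusted p = 0.459), and calorie-restricted mice differed from young controls by -0.39 ± 0.12 (adjusted p = 0.0743). The call with age was lost in 2 of 29 alternatives, each number set alone (adjusted p = 0.114 and 0.123).

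The same gene was read again on array B. There Acadm read 24694, 37970, 35174, 28596 and 38143 in young controls, 25931, 23419, 19872, 19255 and 15410 in old controls, and 25428, 26517, 18402, 25532 and 29741 in calorie-restricted mice. Young animal 1 lay below old animal 1, and the other young mice stood above all old controls. Acadm on array B fell by 0.66 ± 0.18 with age (adjusted p = 0.0349), by set -0.49 (numbers 1 to 3) and -0.93 (4 and 5), and differed by 0.28 ± 0.18 with the diet (adjusted p = 0.498). The call of Acadm on array B was lost in 11 of 29 alternatives, among them without young animal 2 (adjusted p = 0.0991), 3 (0.0891) or 5 (0.0972) and without old control 3 (0.0752), 4 (0.0754) or 5 (0.0977). Across 15 animals its log2 values on both arrays had a Pearson r of 0.857, and of 0.645 within groups, again a description of readings that share RNA.

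The long-chain, very long-chain and short-chain enzymes did not follow Acadm past the threshold. Acadl and Acadvl differed by -0.11 ± 0.14 and -0.04 ± 0.14 with age and by 0.25 ± 0.14 each with the diet. Acads read 11725, 9169, 9133, 8476 and 10800 in young controls, 8794, 13401, 16295, 8603 and 9752 in old controls, and 7393, 8775, 8373, 9542 and 7147 in calorie-restricted mice. Old controls 2 and 3 were the highest and the groups overlapped. Its log2 change of -0.43 ± 0.18 with the diet was the lowest in its class (adjusted p = 0.27), where Acadm, Acadl and Acadvl were each above 0, and with age it was 0.17 ± 0.18 (adjusted p = 0.715).

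Of the enzymes of hydration, the second dehydrogenation and thiolysis, 0 of 4 changed with age or diet, and Acaa2 was higher in calorie-restricted than in young mice. ACAA2 is the thiolase that cuts acetyl-CoA from medium chains. Acaa2 read 12050, 9867, 10430, 8552 and 14488 in young controls, 12796, 12835, 13257, 12765 and 13469 in old controls, and 15190, 14879, 17585, 23214 and 26353 in calorie-restricted mice. All 5 calorie-restricted mice lay above all 10 control-fed mice, with animals 4 and 5 the highest. The log2 difference from old controls was 0.54 ± 0.18 (adjusted p = 0.142) and from young controls 0.80 ± 0.18 (adjusted p = 0.0102), to 1.74 times the young level. In numbers 1 to 3 these were 0.29 and 0.56 and in numbers 4 and 5 they were 0.91 and 1.15, the last with an adjusted p of 0.164 in that set alone.

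ECHS1 hydrates short and medium enoyl-CoA. Echs1 read 7756, 6610, 6881, 8086 and 8058 in young controls, 5945, 3670, 5803, 7690 and 7722 in old controls, and 10185, 9745, 6935, 8128 and 9536 in calorie-restricted mice. Old controls 1 to 3 were the lowest, and the groups overlapped through the others. The log2 change was -0.32 ± 0.19 with age (adjusted p = 0.436) and 0.56 ± 0.19 with the diet (adjusted p = 0.152), the latter 0.81 in numbers 1 to 3 and 0.19 in numbers 4 and 5.

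Hadha, the alpha chain of the trifunctional protein for long chains, and Hadh, the hydroxyacyl-CoA dehydrogenase of shorter chains, were spread by title number within the groups. Hadha read 3823, 2963, 2877, 8558 and 7622 in young controls, 3918, 4686, 5393, 7363 and 8140 in old controls, and 5831, 6164, 10797, 9966 and 8028 in calorie-restricted mice. In both control-fed groups animals 4 and 5 were the highest, while calorie-restricted animal 3 was the highest of its group. Its change was 0.30 ± 0.32 with age, 0.47 ± 0.32 with the diet and 0.77 ± 0.32 between calorie-restricted and young mice (adjusted p = 0.205), the last being 1.19 in numbers 1 to 3 alone (adjusted p = 0.0257) and 0.15 in numbers 4 and 5. Hadh lay between 10948 and 18839 in the 9 animals numbered 1 to 3 and between 23681 and 35934 in the 6 numbered 4 and 5. The ranges did not overlap, with a log2 difference of 1.15 in young controls, 1.03 in old controls and 0.69 in calorie-restricted mice. Against this the changes of Hadh with age (-0.27 ± 0.33) and diet (0.18 ± 0.33) were within the error.

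The auxiliary enzymes ECI1 and DECR1 prepare unsaturated chains for the cycle. Eci1 read 2345, 2459, 2081, 1865 and 1705 in young controls, 1803, 1669, 1696, 1777 and 1646 in old controls, and 2330, 1502, 1696, 2555 and 2290 in calorie-restricted mice. All 5 old controls lay under the floor of 1822 of array B, as did 1 young and 2 calorie-restricted mice, so its log2 changes of -0.20 ± 0.13 with age and 0.24 ± 0.13 with the diet are set by the floor. Decr1 differed by 0.19 ± 0.23 with age and by 0.04 ± 0.23 with the diet. Etfb, a chain of the flavoprotein that takes electrons from the acyl-CoA dehydrogenases, read 7492, 7315, 7894, 7600 and 7851 in young controls, 7272, 6083, 7372, 7411 and 5977 in old controls, and 7108, 7067, 5432, 7864 and 8738 in calorie-restricted mice. The young mice were close together and the old groups wider. Its change was -0.16 ± 0.13 with age (adjusted p = 0.607) and 0.07 ± 0.13 with the diet (adjusted p = 0.85).

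In the peroxisomal class 4 of 7 genes were tested, and 1 of 4 changed with age. AMACR turns branched-chain acyl-CoA and bile acid intermediates into the form that can be oxidised, and acts in peroxisomes and mitochondria. Amacr read 7337, 9736, 7803, 10181 and 10230 in young controls, 4797, 4218, 4632, 4620 and 3336 in old controls, and 4833, 4835, 3241, 3100 and 3090 in calorie-restricted mice. No old mouse of either diet reached the lowest young mouse. Amacr fell with age by 1.06 ± 0.17 on the log2 scale (adjusted p = 0.000618), to 0.479 of the young level, by set -0.86 (numbers 1 to 3) and -1.37 (4 and 5). Calorie-restricted mice were lower than young controls by -1.26 ± 0.17 (adjusted p = 0.000127), and with the diet the change was -0.20 ± 0.17 (adjusted p = 0.62). The call with age was kept in 28 of 29 alternatives and missed with numbers 4 and 5 alone (adjusted p = 0.0516).

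HSD17B4 is the D-bifunctional protein, which hydrates and dehydrogenates peroxisomal enoyl-CoA. Hsd17b4 read 6304, 7444, 7991, 4762 and 6195 in young controls, 7465, 6490, 5009, 5480 and 6007 in old controls, and 8673, 7730, 8849, 8664 and 8962 in calorie-restricted mice. All 5 calorie-restricted mice lay above all 5 old controls, the closest being calorie-restricted animal 2 and old control 1. The difference was 0.50 ± 0.15 (adjusted p = 0.0947), by set 0.43 (numbers 1 to 3) and 0.62 (4 and 5), and with age the change was -0.09 ± 0.15 (adjusted p = 0.82). With the number set as a term in the fit the adjusted p with the diet was 0.0496.

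SCP2 holds the peroxisomal thiolase for branched chains and a lipid carrier, and PHYH starts the alpha-oxidation of phytanic acid. Scp2 read 30030, 34887, 32213, 22204 and 34465 in young controls, 24937, 18139, 24199, 23403 and 18912 in old controls, and 28144, 30328, 20915, 23142 and 25692 in calorie-restricted mice. Phyh read 13479, 14576, 13887, 7870 and 10844 in young controls, 8893, 7518, 9395, 7911 and 5889 in old controls, and 9485, 9118, 9032, 6961 and 7738 in calorie-restricted mice. In both genes young animal 4 was the 1 young mouse that reached into the old controls. The change with age was -0.48 ± 0.16 for Scp2 (adjusted p = 0.104) and -0.60 ± 0.18 for Phyh (adjusted p = 0.0687). By set these were -0.54 and -0.71 in numbers 1 to 3 and -0.39 and -0.43 in numbers 4 and 5. Phyh passed with age in 5 of 29 alternatives, with adjusted p = 0.00639 with the number set as a term, 0.0226 with the replicate block, 0.0133 in numbers 1 to 3 alone and 0.049 with the floor doubled. Without young animal 4 the adjusted p was 0.0284 for Scp2 and 0.00964 for Phyh, and that of Cd36 on array A was 0.0164, so 7 member probe sets passed with age in place of 4. With the diet Scp2 differed by 0.22 ± 0.16 and Phyh by 0.10 ± 0.18. Between calorie-restricted and young mice Phyh differed by -0.49 ± 0.18 (adjusted p = 0.137), and it passed in 3 of 29 alternatives, with 0.0249 without young animal 4.

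ACAT1 joins and splits acetoacetyl-CoA in mitochondria and serves ketone body use and isoleucine breakdown, and it was the 1 tested gene of its class. Acat1 read 20043, 24223, 24503, 14628 and 20003 in young controls, 14644, 7683, 11913, 6380 and 8763 in old controls, and 15091, 16249, 7460, 10713 and 11877 in calorie-restricted mice. The lowest young control, animal 4 at 14628, and the highest old control, animal 1 at 14644, were level, and the other young mice stood above all old controls. Acat1 fell with age by 1.10 ± 0.24 on the log2 scale (adjusted p = 0.0107), to 0.465 of the young level, by set -1.05 (numbers 1 to 3) and -1.19 (4 and 5). The change with the diet was 0.32 ± 0.24 (adjusted p = 0.58), and the difference from young controls -0.78 ± 0.24 (adjusted p = 0.0779). The call with age was lost in 3 of 29 alternatives, each number set alone (adjusted p = 0.164 and 0.12) and no filter on low values (adjusted p = 0.0852).

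PPARA, the regulator, was itself within its spread. Ppara read 4734, 3722, 5152, 2146 and 2435 in young controls, 4723, 6106, 4657, 2613 and 2847 in old controls, and 4858, 5505, 6545, 3022 and 3183 in calorie-restricted mice. In every group animals 4 and 5 were the lowest, with 2146 to 3183 against 3722 to 6545 in numbers 1 to 3. The log2 change was 0.22 ± 0.30 with age (adjusted p = 0.789) and 0.15 ± 0.30 with the diet (adjusted p = 0.862). Hadh and Ppara were the 2 of 28 member probe sets that the number sets separated with the 3 groups pooled.

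**Figure D3:**
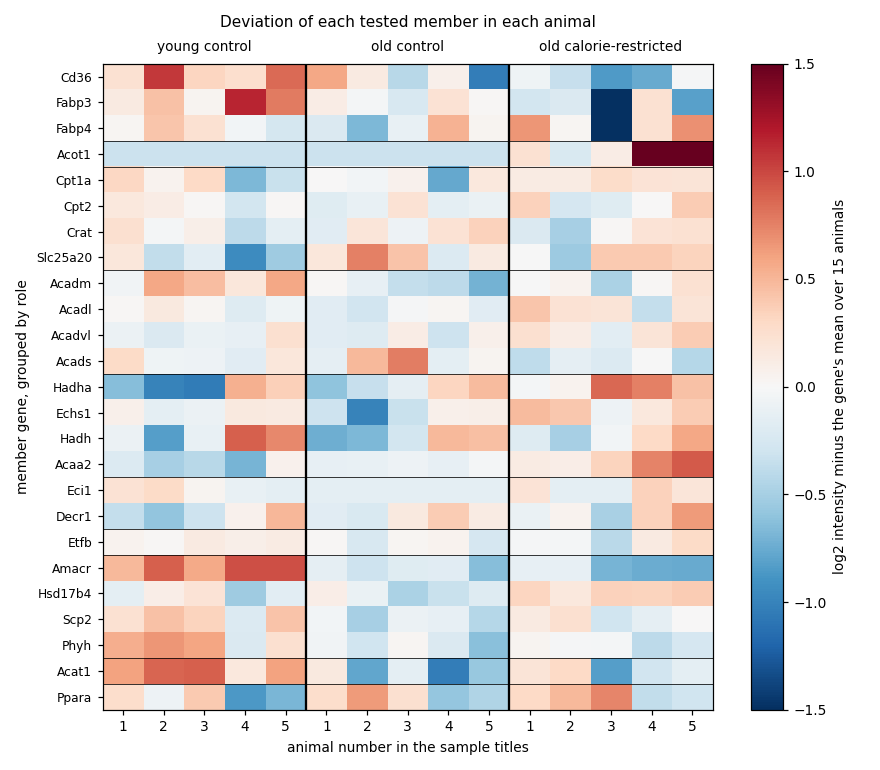
log2 intensity of each of the 25 tested member genes (vertical axis, grouped by role) in each of 15 animals (horizontal axis, title number within each group), as the difference from the gene's mean over the 15 animals and coloured from -1.5 (blue) to 1.5 (red). Amacr and Acat1 are high in young controls, and Hadh is high and Ppara low in animals 4 and 5 of every group.

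Set side by side, the median log2 change with age was -0.11 over 11 mitochondrial genes, -0.54 over 4 peroxisomal genes, 0.05 over 4 carnitine genes and -0.49 over 3 uptake genes, each gene by its brightest probe set, against -0.04 over all tested probe sets. Of these, 1 of 11, 1 of 4, 0 of 4 and 0 of 3 genes passed, against 5.05% of all tested probe sets called with age. Nothing is read from a contrast of such small counts. Without Amacr, a choice made after the values were seen, the peroxisomal median was -0.48. With the diet the medians were 0.25, 0.16, -0.01 and -0.27, against 0.03 over all tested probe sets. There 0 genes were past the threshold, against 2.62% of all tested probe sets. The uptake median with the diet turned from -0.52 in numbers 1 to 3 to 0.10 in numbers 4 and 5, and the carnitine median from -0.11 to 0.37 with the diet and from -0.12 to 0.37 with age. Between calorie-restricted and young mice they were 0.14, -0.37, 0.16 and -0.95. The classes are small and no test was made of these medians.

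By animal, the mean deviation of the 4 peroxisomal genes on the log2 scale was 0.28, 0.52, 0.43, 0.001 and 0.37 in young controls, -0.03, -0.30, -0.18, -0.21 and -0.47 in old controls, and 0.09, 0.07, -0.17, -0.24 and -0.16 in calorie-restricted mice. No old control reached a young control, while without Amacr young animal 4, at -0.32, fell among the old controls. Mitochondrial means were -0.07, -0.21, -0.13, 0.06 and 0.24 in young controls, -0.23, -0.26, -0.03, 0.02 and -0.01 in old controls, and 0.07, 0.02, -0.05, 0.24 and 0.35 in calorie-restricted mice. These overlapped in every pair of groups, and in all groups the top mice were numbered 4 or 5. The peroxisomal minus the mitochondrial mean was 0.34 ± 0.32 (SD, n = 5) in young controls, -0.14 ± 0.24 in old controls and -0.20 ± 0.27 in calorie-restricted mice, or 0.19 ± 0.41, -0.12 ± 0.24 and -0.07 ± 0.22 without Amacr. Carnitine means ran from -0.57 to 0.22, -0.23 to 0.19 and -0.29 to 0.29 in the same order of groups, and uptake means from 0.13 to 0.64, -0.33 to 0.27 and -1.31 to 0.11, the last pulled down by calorie-restricted animal 3.

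**Figure D4:**
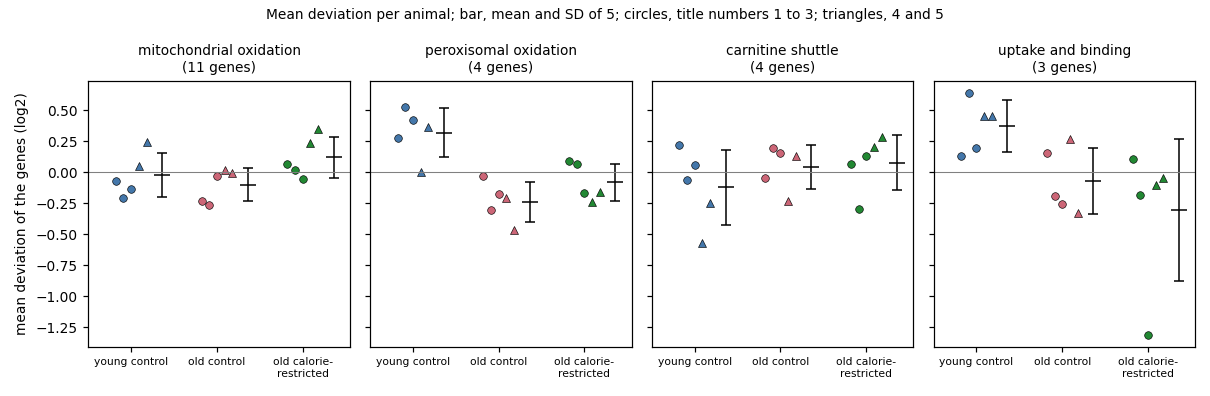
Mean log2 deviation (vertical axis) of the genes of 4 role classes in each animal, by group, with black bars for the mean and SD of 5, circles for title numbers 1 to 3 and triangles for 4 and 5. Old controls lie below young controls in all animals for the mean of the 4 peroxisomal genes and overlap them for that of the 11 mitochondrial genes. Without Amacr, which is not drawn, young animal 4 falls among the old controls in the peroxisomal mean, at -0.32.

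Of 69 further oxidation genes 22 were on the arrays and 17 tested, of which 1 fell with age, 1 rose with the diet, and 1 was lower in calorie-restricted than in young mice, with medians of -0.01, 0.09 and -0.02. These single calls stand against 5.05%, 2.62% and 5.72% of all tested probe sets, and nothing is read from their number. Acad9, an acyl-CoA dehydrogenase that also helps assemble complex I, averaged 2071 ± 383.2 (SD, n = 5) among young controls, 1179 ± 431.6 among old controls and 977.6 ± 316.3 among calorie-restricted mice, near the floor of 1103 in the old groups. Acad9 fell by 0.71 ± 0.17 with age (adjusted p = 0.0165), a call lost in 7 of 28 alternatives, among them without young animal 2 or 3, and the log2 difference from young in calorie-restricted mice was -0.82 ± 0.17 (adjusted p = 0.0056). Pxmp2, a pore protein of the peroxisomal membrane, read 2043 ± 1965 in old controls and 6106 ± 1481 in calorie-restricted mice, a rise of 1.34 ± 0.32 (adjusted p = 0.0337) that was lost in 15 of 29 alternatives, 8 of them leaving out 1 animal. Of the branched-chain and propionyl-CoA genes 0 of 8 tested changed, with medians of -0.33 with age and 0.15 with the diet.

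Of the PPAR alpha partners and targets outside the set, 18 of 32 were on the arrays and 11 tested. Between calorie-restricted and young mice 6 of 11 were higher and 1 lower, with a median of 0.90. Of all tested probe sets 2.95% were higher and 2.77% lower. This list was drawn up with earlier results of these data known, and its direction is no independent evidence. Cyp4a14 and Cyp4a10, which hydroxylate the far end of fatty acids, were higher by 2.60 ± 0.42 (adjusted p = 0.000686) and 1.63 ± 0.25 (adjusted p = 0.000498). Vnn1, a pantetheinase, Angptl4, an inhibitor of lipoprotein lipase, and Plin2, a lipid droplet coat, were higher by 1.67 ± 0.26, 1.55 ± 0.26 and 0.90 ± 0.19. These calls of Cyp4a14, Cyp4a10, Vnn1 and Plin2 were lost in 1 of 29 alternatives, numbers 4 and 5 alone, and that of Angptl4 in numbers 1 to 3 alone. Cyp4a31 was higher by 1.01 ± 0.28 on its f probe set (adjusted p = 0.0476, lost in 18 of 29 alternatives) and by 1.33 ± 0.17 on its i probe set (adjusted p = 7.85e-05). Nr1h4, the bile acid receptor, was lower by -0.83 ± 0.23 (adjusted p = 0.0449, lost in 18 of 29 alternatives). Cyp4a genes are close copies, and their probe sets may read each other's transcripts.

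With age 1 of these 11 rose and 1 fell, and with the diet 1 rose, against 5.05% and 2.62% of all tested probe sets called. Vnn1 rose by 1.02 ± 0.26 with age (adjusted p = 0.0297) and differed by 0.66 ± 0.26 with the diet (adjusted p = 0.25), and G0s2, an inhibitor of fat breakdown, fell by 0.61 ± 0.15 with age (adjusted p = 0.028) and differed by 0.54 ± 0.15 with the diet (adjusted p = 0.0862). The age calls were lost in 9 of 29 alternatives for Vnn1 and 11 of 29 for G0s2, in each case 6 of them leaving out 1 animal. Cyp4a31 also rose with age on its i probe set, by 0.77 ± 0.17 (adjusted p = 0.011). With the diet Cyp4a14 rose, reading 6955 ± 2573 in old controls and 21530 ± 6763 in calorie-restricted mice, by 1.64 ± 0.42 (adjusted p = 0.0453), a call lost in 15 of 29 alternatives, 10 of them leaving out 1 animal. The list medians were 0.33 with age and 0.54 with the diet.

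Cell type markers moved as well. Their counts stand against 5.05% of all tested probe sets called with age and 2.62% with the diet. Between calorie-restricted and young mice 5.72% were called. Of 11 tested leukocyte genes 8 rose with age and 6 fell with the diet, and their summed intensity was 29821 to 38690 in young controls, 126992 to 226846 in old controls and 43506 to 70801 in calorie-restricted mice. The immunoglobulin chains Igha and Ighm weigh most in the old control sum. Igha averaged 1753, 40940 and 9437 in the same order of groups, and Ighm on its brightest probe set 3131, 45850 and 6808. Ptprc, Cd68 and C1qc were not called with age (adjusted p = 0.553, 0.469 and 0.109). Of 8 genes of the loop, distal tubule and collecting duct 3 fell with age and 1, Egf, rose with the diet, and their sum was 163486 to 198007, 133525 to 145069 and 167451 to 209540 in the same order of groups. The call of Egf was lost in 12 of 29 alternatives with the diet, 7 of them leaving out 1 animal, and in 19 of 29 with age, 12 of them leaving out 1 animal, and that of Calb1 with age in 9 of 29, 6 of them leaving out 1 animal. Of 10 proximal tubule genes 1 fell with age, Gatm of creatine synthesis (-0.87 ± 0.16, adjusted p = 0.0026), and 0 changed with the diet, while 3 were lower in calorie-restricted than in young mice. The sum overlapped between groups at 308855 to 499312, 260818 to 447510 and 272948 to 400017. Kap, on array B, was the brightest of the 10 and weighs most in this sum. It read 141500 ± 57020 (SD, n = 5), 117300 ± 51730 and 123600 ± 44300 in the same order. The list medians were -0.17 with age, 0.01 with the diet and -0.14 between calorie-restricted and young mice. Slc34a1 read 64920 ± 2960 (SD, n = 5), 62860 ± 7567 and 62120 ± 7105. The part of these markers in the falls of Amacr, Acat1 and Acadm was not tested, and in whole tissue fewer cells of a type and less RNA per cell cannot be told apart.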

How the data were processed

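Arrays of 2 types held kidney RNA of 15 mice, whose group and number the sample titles give. Each deposited intensity is a whole number for 1 probe set, negative for 20.8% to 26.6% of the values of an A array and 29.2% to 35.9% of those of a B array. Their software and background correction were not given in the sources used here. Arrays were brought to 1 common mean per table, with the top and bottom 2% trimmed (factors of 0.995 to 1.01), floored at the root mean square of the table's negative values and turned to log2. Changes near the floor are understated. Probe sets above the floor on at least 5 arrays were tested, 2609 on A and 1903 on B. Not used were 122 control probe sets and 77 rows with blanks, 16 of them not controls, none a member. Both arrays of an animal were joined by group and number, and the tables were normalized separately.

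One limma 3.58.1 model (R 4.3.3, lmFit then eBayes) held all 3 groups, p-values were adjusted by Benjamini-Hochberg across both tables and called at 0.05, and the code was tested on simulated data. Array annotation gave 7561 probe sets 1 symbol, and 7544 were updated by gene number with RefSeq names of GRCm38.p6. Members and lists were chosen with earlier results of these data known. Values in every animal are given for members past the threshold in any comparison, or with the largest change with age or diet in their class, and for Hadha, Scp2 and Phyh, chosen after their values were seen. Of other pathway genes, up to 10 past the threshold are named. Alternatives were other scaling, floors, transforms, filters and moderation, separate fits, a replicate block, the number sets, leaving out the 85 probe sets of table B, and leaving out each animal, and, after seeing the data, the peroxisomal median without Amacr. Figures were drawn with matplotlib 3.10.9.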

Additional observations from a re-analysis of the deposited data

Results flagged for a closer look

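In 4 of the 84 sets of 5 animals examined (28 member probe sets in 3 groups), 1 animal stood farther from its nearest neighbour than Dixon's critical value for 5 samples allows, and chance alone flags about 1 in 20. Cpt1a read 7431 in old control 4, against 12364 to 14119 in the other old controls. Cpt2 read 4976 in old control 3, against 3767 to 3942 in the others. Acadvl read 10262 in young control 5, with the other young mice between 7476 and 8203. Hsd17b4 read 7730 in calorie-restricted animal 2, with the others between 8664 and 8962.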

How the results depend on the processing

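With age, 4 of 28 member probe sets passed, and the count was 2 without a filter on low values (13041 probe sets tested), 2 in numbers 1 to 3 alone, 0 in numbers 4 and 5 alone, and 3 to 7 when 1 animal was left out, the 7 without young control 4. With the diet 0 passed, and the count was 1 with the floor halved, 1 with the asinh transform, 2 with the number set as a term, 1 in numbers 4 and 5 alone, and 0 to 1 when 1 animal was left out, the 1 being Acot1 without calorie-restricted animal 2. Acot1, which passed the filter through the calorie-restricted group alone, is the call with the floor halved, with the asinh transform and in numbers 4 and 5 alone, and 1 of the 2 with the number set as a term. Between calorie-restricted and young mice 4 passed, and the count was 2 without a filter, 10 with the number set as a term, 2 in numbers 4 and 5 alone, and 3 to 5 when 1 animal was left out. Acot1 is 1 of these 10 and 1 of the 2 in numbers 4 and 5 alone. It is also among the calls without calorie-restricted animal 2 or 3, and a higher level in that group was a condition of its being tested. Over all tested probe sets the number set as a term gave 344 with age, 224 with the diet and 439 between calorie-restricted and young mice, against 228, 118 and 258. Numbers 4 and 5 alone gave 118, 5 and 97, numbers 1 to 3 alone 151, 251 and 334, and no filter 152, 48 and 163. The medians of the carnitine class were -0.12, -0.11 and -0.08 in numbers 1 to 3 alone and 0.37, 0.37 and 0.59 in numbers 4 and 5 alone. The cause of these shifts was not tested. With the title number as a replicate block, the members' counts were 4, 0 and 6, with Acot1 again 1 of the 6. Over all tested probe sets the block gave 274, 165 and 327. The labels do not say that a number pairs mice across groups. Correlations of same-numbered animals, taken on log2 deviations from the group means, lay between -0.01 and 0.49. They were 0.49, 0.40 and 0.40 for number 4, and 0.44, 0.17 and 0.36 for number 5. Of 15 animals, 2 correlated best with their own number. What same-numbered animals share was not tested. No call reversed its direction under any of the settings run.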

Other observations

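Probe sets of members left untested had these values. Fabp1, the liver fatty acid binding protein whose promoter holds the direct repeat, lay at or under background on its f probe set on 13 of 15 arrays, with 4785 in young control 5 and 2343 in calorie-restricted animal 5 above the floor of 1103. Its i probe set lay between -257 and 445 on all 15. The second Crat probe set, on array B, exceeded the floor of 1822 in old controls 2 and 4 (2169 and 1875) and in calorie-restricted animal 4 (1857) alone.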
